A study of Mus musculus with 10 samples.

Results

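Receptors that clear sugars, modified lipoproteins and blood proteins from around a macrophage were read in bone marrow-derived macrophages (BMDMs) of Rac2-/- and WT mice. The group holds 9 genes, Mrc1, Stab1, Cd163, Msr1, Marco, Scarb1, Scarb2, Folr2 and Cd68, of 16883 genes that could be tested. They were chosen by symbol, from what the receptors are known to do, but with earlier results of these data known. Each was taken from the 1 array feature that carries its symbol alone. RNA from 5 Rac2-/- and 5 WT BMDM samples, numbered 1 to 5 in each group, was hybridised to 10 Affymetrix Mouse Gene 1.0 ST arrays. The mice were male, of the C57BL strain in the labels and C57BL/6J in the study's methods, and the WT mice were normal littermates, so that the groups were labelled as differing in the loss of Rac2, a small GTPase of blood cells, with no Cre line or conditional allele named. Both groups were grown on M-CSF at 50 ng/ml in 20% serum and 16% oxygen, with 7 days on M-CSF and 8 days of culture in the labels, and received no further treatment. The question for these genes was whether the loss of Rac2 changed their RNA in unstimulated BMDMs.

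The mannose receptor binds mannose-ended glycans and delivers them to endosomes, and the stabilins, class A and class B scavenger receptors bind oxidised or acetylated lipoproteins, matrix fragments and dying cells. CD163 takes up haemoglobin bound to haptoglobin, and folate receptor beta takes up folates. Several of these genes are used as markers of alternatively activated or tissue-resident macrophages, and CD68 is a general macrophage marker held mainly in lysosomes.

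The label of the knockout held in the arrays. Rac2 averaged 7.10 ± 0.29 in Rac2-/- BMDMs and 12.10 ± 0.27 in WT BMDMs (log2 value, SD, n = 5 each), 32.1-fold lower in Rac2-/- BMDMs. Macrophage markers were high in both groups, with Adgre1, which encodes F4/80, at 12.68 ± 0.12 in Rac2-/- and 12.57 ± 0.081 in WT BMDMs, and Csf1r, the M-CSF receptor, at 12.78 ± 0.12 in Rac2-/- and 12.66 ± 0.090 in WT BMDMs. In both groups arrays 1 and 2 stood apart from arrays 3 to 5, and the first principal component, which took 57.7% of the variance, followed this split and not the genotype. No source names the split, and it is called the array set here. Each array set held both genotypes, so the values within the sets stand beside the results.

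Of the 9 receptors, 3 passed the test between Rac2-/- and WT BMDMs, in which limma compared the log2 values of all features and adjusted p was under 0.05. Mrc1 and Stab1 rose and Folr2 fell. The share of all features called by the same rule was 1.9%. The means of 6 receptors were higher in Rac2-/- BMDMs and those of 3 were lower, against 49.9% of all features tested with higher means. The median difference was 0.27 on the log2 scale, against -0.00034 over all features tested. Differences are given as Rac2-/- minus WT throughout.

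**Figure D1:**
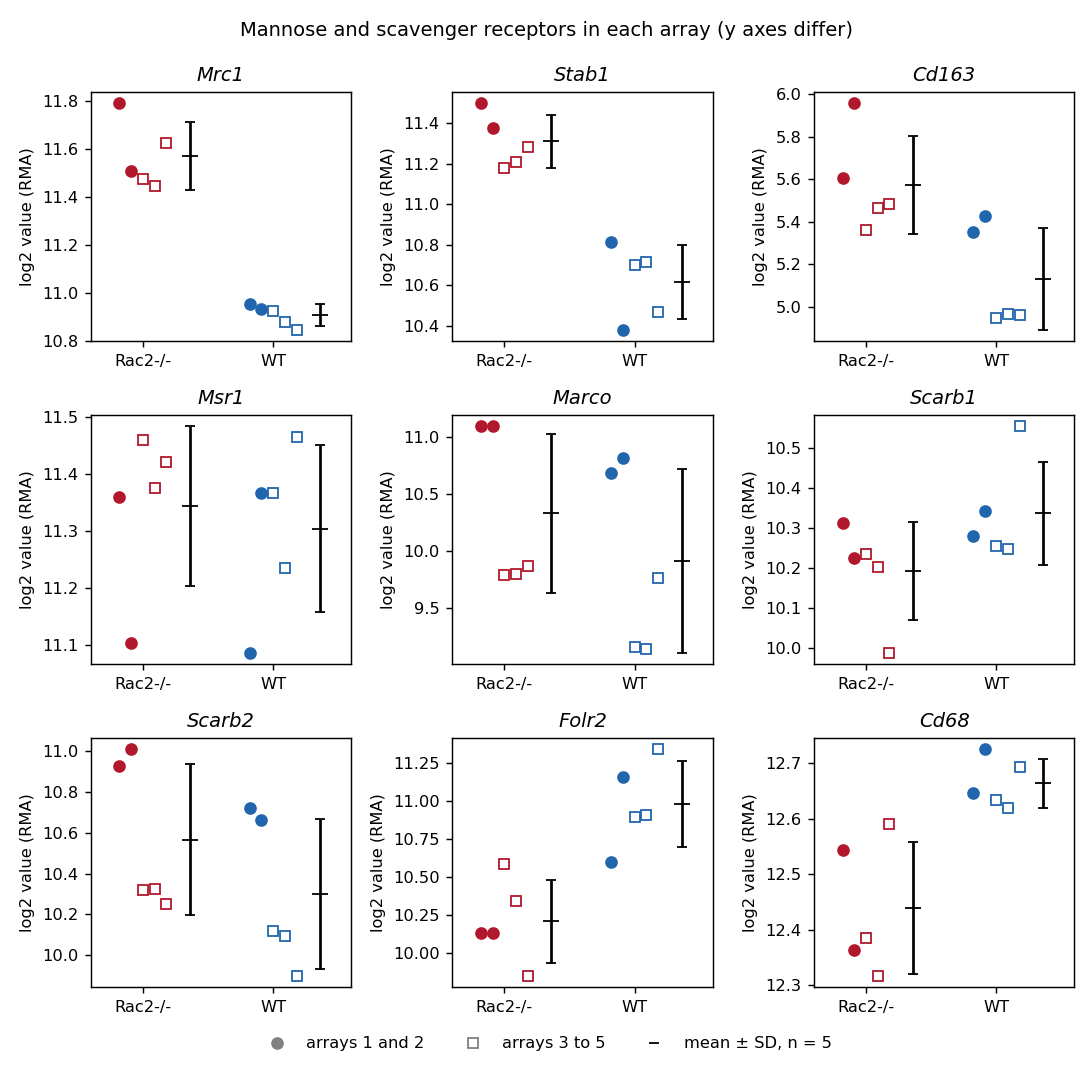
Log2 RMA values of the 9 receptors in each array, Rac2-/- to the left of WT, with filled circles for arrays 1 and 2, open squares for arrays 3 to 5, and bars for the mean ± SD of 5 arrays; the y axes differ between genes. The groups of Mrc1, Stab1, Folr2 and Cd68 do not overlap, and the arrays of Cd163, Marco and Scarb2 split by array set in both genotypes.

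Mrc1 encodes the macrophage mannose receptor CD206, a C-type lectin of the cell surface and endosomes. Its log2 values were 11.79, 11.51, 11.47, 11.45 and 11.62 in Rac2-/- arrays 1 to 5, against 10.96, 10.93, 10.92, 10.88 and 10.85 in WT arrays 1 to 5. All Rac2-/- arrays lay above all WT arrays, and Rac2-/- array 1 was the highest. The mean was 11.57 ± 0.14 in Rac2-/- and 10.91 ± 0.044 in WT BMDMs (SD, n = 5 each), a difference of 0.66 (SE 0.082, 95% interval 0.48 to 0.84), or 1.58-fold higher in Rac2-/- BMDMs, with an adjusted p of 0.00352. The difference was 0.71 within arrays 1 and 2 and 0.63 within arrays 3 to 5. It passed the test in all 10 fits that left out 1 array, with adjusted p between 0.0031 and 0.0163.

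Stab1 encodes stabilin-1, which takes up oxidised low-density lipoprotein and the matrix protein SPARC and sorts them to lysosomes. Its log2 values were 11.50, 11.38, 11.18, 11.21 and 11.29 in Rac2-/- arrays 1 to 5, against 10.82, 10.38, 10.70, 10.72 and 10.47 in WT arrays 1 to 5. The groups did not overlap, and the WT arrays were spread more widely than for Mrc1. The mean was 11.31 ± 0.13 in Rac2-/- and 10.62 ± 0.18 in WT BMDMs (SD, n = 5 each), a difference of 0.70 (SE 0.11, 95% interval 0.46 to 0.93), or 1.62-fold higher in Rac2-/- BMDMs, with an adjusted p of 0.0096. The difference was 0.84 within arrays 1 and 2 and 0.60 within arrays 3 to 5, and it passed in 10 of 10 fits without 1 array (adjusted p 0.0122 to 0.0321).

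Mrc1 and Stab1 were the closest pair among the 9 receptors. With each gene centred on its own mean, their root mean square distance over the 10 arrays was 0.12 on the log2 scale. It was 0.78 between Mrc1 and Folr2 and 0.82 between Stab1 and Folr2. The distance keeps the genotype difference, so much of this contrast restates the opposite signs of the calls. The root mean square of the centred values themselves was 0.34 for Mrc1 and 0.38 for Stab1. Scarb1 and Cd68, neither of them called, were at 0.15, but the distance is also small between genes that vary little. Among all tested genes with a feature of their own, the closest to Stab1 was Mrc1. The 3 closest to Mrc1 were Cd302, a C-type lectin receptor, at a distance of 0.10, Glo1, the glyoxalase that detoxifies methylglyoxal, at 0.11, and Ttc3 at 0.11. Genes chosen for closeness to a receptor that was called carry much of its genotype difference through that choice, so their differences are given as a description. They were 0.57 for Cd302, 0.74 for Glo1 and 0.62 for Ttc3. The next closest to Stab1 were Ivns1abp at 0.13 and Ift140 at 0.13, and their differences were 0.74 and 0.51.

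The start regions of Mrc1 and Stab1 are shown because the RNAs of these genes moved together. Both are given 5′ to 3′ on the strand of the gene, from RefSeq on GRCm38.p6, at chr2:14229164-14229463 on the plus strand for Mrc1 and chr14:31168592-31168891 on the minus strand for Stab1. Capitals mark matches, on either strand, to GAGGAA, the core bound by PU.1, the macrophage factor encoded by Spi1, to TGCTGA, part of the site bound by the MAF family, and to CACGTG, the E-box bound by TFEB and its relatives.
Mrc1: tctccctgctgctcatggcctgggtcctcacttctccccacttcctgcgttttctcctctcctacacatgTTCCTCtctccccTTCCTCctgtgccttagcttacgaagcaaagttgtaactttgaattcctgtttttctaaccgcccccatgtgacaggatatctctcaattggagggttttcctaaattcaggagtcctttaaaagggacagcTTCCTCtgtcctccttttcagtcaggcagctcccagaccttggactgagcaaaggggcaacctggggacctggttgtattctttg
Stab1: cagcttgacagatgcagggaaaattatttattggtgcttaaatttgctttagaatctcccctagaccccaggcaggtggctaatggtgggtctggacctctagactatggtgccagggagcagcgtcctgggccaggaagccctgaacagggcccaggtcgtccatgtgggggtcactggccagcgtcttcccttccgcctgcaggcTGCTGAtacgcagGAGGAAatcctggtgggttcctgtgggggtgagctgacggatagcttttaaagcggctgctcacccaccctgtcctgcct
The Mrc1 window held 3 matches to GAGGAA, all on the opposite strand and so printed as TTCCTC, with first bases at -180, -167 and -35 from the gene start. The Stab1 window held 1 match to GAGGAA at -30 and 1 to TGCTGA at -43, both on the gene's strand. No 2 of these matches overlap. Over the 32851 promoter windows of the same length, 28.3% held GAGGAA, 19.5% TGCTGA and 7.15% CACGTG on either strand. A match describes the letters of the window and does not show a bound site.

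Folr2 encodes folate receptor beta, a surface protein of myeloid cells anchored by a lipid. It was the 1 receptor called as lower in Rac2-/- BMDMs, while Scarb1 and Cd68 had lower means without a call. Its log2 values were 10.13, 10.13, 10.59, 10.35 and 9.85 in Rac2-/- arrays 1 to 5, against 10.60, 11.16, 10.90, 10.91 and 11.35 in WT arrays 1 to 5. The groups did not overlap, but the highest Rac2-/- array, at 10.586, and the lowest WT array, at 10.601, almost met. The mean was 10.21 ± 0.27 in Rac2-/- and 10.98 ± 0.28 in WT BMDMs (SD, n = 5 each), a difference of -0.77 (SE 0.17, 95% interval -1.14 to -0.40), or 1.71-fold lower in Rac2-/- BMDMs, with an adjusted p of 0.0465. The difference was -0.75 within arrays 1 and 2 and -0.79 within arrays 3 to 5. The call was not stable: it passed in only 2 of 10 fits without 1 array, with adjusted p between 0.0334 and 0.118, the highest without WT array 2, and missed the threshold with the replicate block (adjusted p = 0.0507).

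The 3 genes closest to Folr2 were Phlpp1, a phosphatase that acts on AKT, at a distance of 0.13, A530032D15Rik at 0.13 and Serpinb9, an inhibitor of granzyme B, at 0.14. As a description, chosen in the same way, the differences were -0.82 for Phlpp1, -0.73 for A530032D15Rik and -0.74 for Serpinb9. RefSeq gives Folr2 starts in windows at chr7:101857141-101857440 and chr7:101845282-101845581, both on the minus strand of GRCm38.p6. They are shown because Folr2 moved against Mrc1 and Stab1, with capitals as above.
Folr2, upstream start: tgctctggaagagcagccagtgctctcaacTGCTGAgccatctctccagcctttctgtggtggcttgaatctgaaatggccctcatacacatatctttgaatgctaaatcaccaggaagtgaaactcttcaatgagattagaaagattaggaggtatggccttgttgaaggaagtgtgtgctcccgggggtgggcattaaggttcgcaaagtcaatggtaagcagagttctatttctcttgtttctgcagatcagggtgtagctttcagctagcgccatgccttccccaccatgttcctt
Folr2, downstream start: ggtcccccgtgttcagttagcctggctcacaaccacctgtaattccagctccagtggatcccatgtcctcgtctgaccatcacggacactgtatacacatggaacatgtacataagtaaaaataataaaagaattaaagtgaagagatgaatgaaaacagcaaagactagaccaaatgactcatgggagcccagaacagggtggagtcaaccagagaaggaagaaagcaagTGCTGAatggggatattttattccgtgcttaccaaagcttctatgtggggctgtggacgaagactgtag
Each window held 1 match to TGCTGA, at -220 and at -19 from its start, and no match to GAGGAA or CACGTG. Of the 9 receptors, 7 had a window in the table. Beside Mrc1 and Stab1, GAGGAA was found in the windows of Marco, once, and Cd68, at 2 places, and TGCTGA in that of Scarb2, while the Cd163 window held none of the 3 motifs, and no window of the 7 genes held CACGTG.

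Cd163 encodes the haemoglobin scavenger receptor. Its log2 values were 5.60, 5.96, 5.36, 5.46 and 5.48 in Rac2-/- arrays 1 to 5, against 5.35, 5.43, 4.95, 4.96 and 4.96 in WT arrays 1 to 5. Rac2-/- array 3 fell below WT array 2, so the groups overlapped, although all Rac2-/- arrays lay above all WT arrays within each array set. The difference of 0.44 (SE 0.14, 95% interval 0.13 to 0.76) had an adjusted p of 0.215. Cd163 was higher in the Rac2-/- array of all 5 pairs of the same number, by 0.25 to 0.53, as any pairing within the sets would give. With the replicate number as a block it passed the test (adjusted p = 0.0150), as it did with a term for the array set (adjusted p = 0.00477). The Cd163 feature lay low on the arrays, above 39.5% of all features in Rac2-/- and 30.8% in WT BMDMs, and the deposited table gives no detection calls.

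The class A scavenger receptors Msr1 and Marco have collagen-like stalks and bind modified lipoproteins and bacteria. Msr1, the receptor also called SR-A1, had log2 values of 11.36, 11.10, 11.46, 11.38 and 11.42 in Rac2-/- arrays 1 to 5, against 11.09, 11.37, 11.37, 11.24 and 11.46 in WT arrays 1 to 5. The groups overlapped over most of their range. The difference was 0.040 (SE 0.099, 95% interval -0.18 to 0.26; adjusted p = 0.999).

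Marco had log2 values of 11.10, 11.10, 9.79, 9.79 and 9.86 in Rac2-/- arrays 1 to 5, against 10.68, 10.82, 9.15, 9.14 and 9.76 in WT arrays 1 to 5. Arrays 1 and 2 were high and arrays 3 to 5 low in both genotypes, and the groups overlapped across the sets. The difference of 0.42 had an SE of 0.43 and an adjusted p of 0.955, and without 1 array it ran between 0.22 (without WT array 4, with like values without WT array 3, Rac2-/- array 1 or Rac2-/- array 2) and 0.64 (without WT array 2). Within each array set all Rac2-/- arrays lay above all WT arrays. Marco was thus higher in the Rac2-/- array of all 5 pairs, by 0.10 to 0.65, as any pairing within the sets would give. The SE was 0.096 with the replicate block, where the adjusted p of 0.0549 still missed the threshold.

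The class B receptors are built with a loop between membrane spans. Scarb1, encoding SR-B1, which exchanges cholesterol with high-density lipoprotein, had log2 values of 10.31, 10.22, 10.23, 10.20 and 9.99 in Rac2-/- arrays 1 to 5, against 10.28, 10.34, 10.26, 10.25 and 10.55 in WT arrays 1 to 5. The groups overlapped through Rac2-/- array 1, and the widest gap was in arrays 5. The difference was -0.14 (SE 0.091, 95% interval -0.34 to 0.058; adjusted p = 0.758). It was -0.042 within arrays 1 and 2 and -0.21 within arrays 3 to 5, and -0.089 without WT array 5 and -0.092 without Rac2-/- array 5.

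Scarb2, encoding the lysosomal membrane protein LIMP-2, which carries glucocerebrosidase to lysosomes, had log2 values of 10.93, 11.01, 10.32, 10.32 and 10.25 in Rac2-/- arrays 1 to 5, against 10.72, 10.66, 10.12, 10.10 and 9.90 in WT arrays 1 to 5. As for Marco, arrays 1 and 2 were high in both genotypes, and within each set the Rac2-/- arrays lay above the WT arrays. The difference of 0.27 had an SE of 0.21 and an adjusted p of 0.882, and it was 0.16 without Rac2-/- array 2, 0.17 without WT array 5 and 0.18 without Rac2-/- array 1. With the replicate block the SE was 0.059 and Scarb2 passed the test (adjusted p = 0.0482).

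Cd68 had log2 values of 12.54, 12.36, 12.38, 12.32 and 12.59 in Rac2-/- arrays 1 to 5, against 12.65, 12.73, 12.63, 12.62 and 12.69 in WT arrays 1 to 5. The groups did not overlap, and the WT arrays were tightly grouped. The difference was small, -0.22 (SE 0.076, 95% interval -0.39 to -0.055), and its adjusted p was 0.251.

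**Figure D2:**
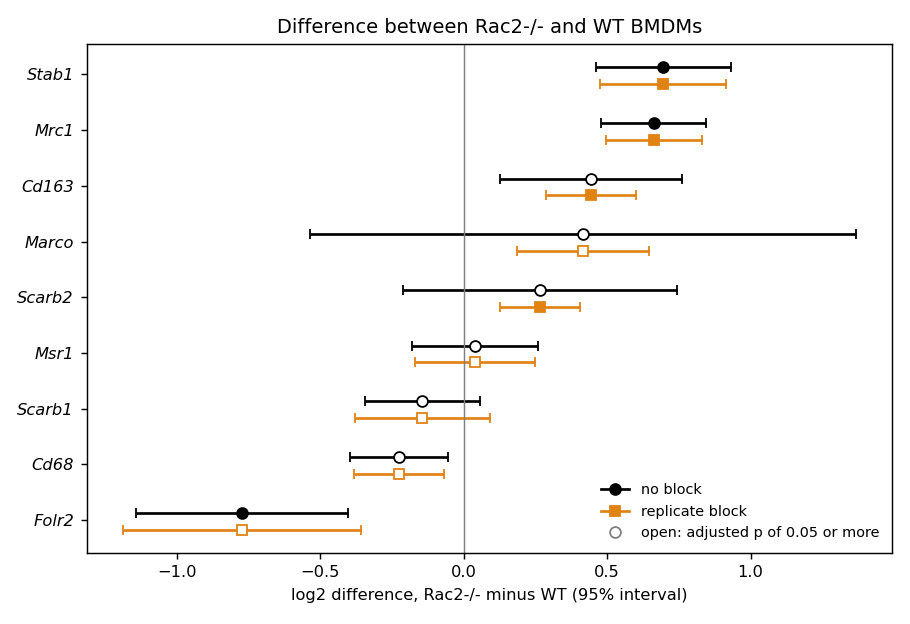
Log2 differences, Rac2-/- minus WT, of the 9 receptors with 95% intervals, from the fit without a block (black circles) and with the replicate number as a block (orange squares); filled symbols have an adjusted p under 0.05. Stab1 and Mrc1 pass in both fits, Cd163 and Scarb2 with the block only and Folr2 without it only.

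Counted over the group, the receptors called were 3 without a block and 4 with the replicate block (Mrc1, Stab1, Cd163 and Scarb2), against 6.35% of all features called in the same fit. With a term for the array set 5 were called, these 4 and Folr2, against 9.34% of all features. Within arrays 3 to 5 alone 3 were called, Mrc1, Stab1 and Cd163, against 5.5% of all features. Groups that did not overlap were found for 4 of the 9 receptors, Mrc1, Stab1, Folr2 and Cd68, and for 4.52% of all features. Taken singly, each of these 4 had an exact two-sided permutation p of 0.00794, the smallest that 5 arrays against 5 allow. Any gene whose groups do not overlap has this p, so it restates the lack of overlap and adds no support.

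The array sets differed in 3 of the 9 receptors, at 46.9% of all features, so this count was no higher than for the arrays as a whole. Fitted with genotype, arrays 3 to 5 were lower than arrays 1 and 2 by 1.34 for Marco (adjusted p = 8.8e-06), 0.66 for Scarb2 (adjusted p = 1.2e-05) and 0.39 for Cd163 (adjusted p = 0.00159), all on the log2 scale. For Marco the means of arrays 3 to 5 and of arrays 1 and 2 were 9.81 and 11.10 in Rac2-/- BMDMs, and 9.35 and 10.75 in WT BMDMs. This step was larger than the genotype difference of the same gene. For Mrc1, Stab1, Scarb1 and Cd68 the array sets differed by 0.10 or less in size. A test of whether the genotype difference itself changed with the array set called none of the 9 receptors, and 0% of all features, in limma; at an unadjusted p under 0.05 it held 0 receptors and 1560 features (5.77%).

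**Figure D3:**
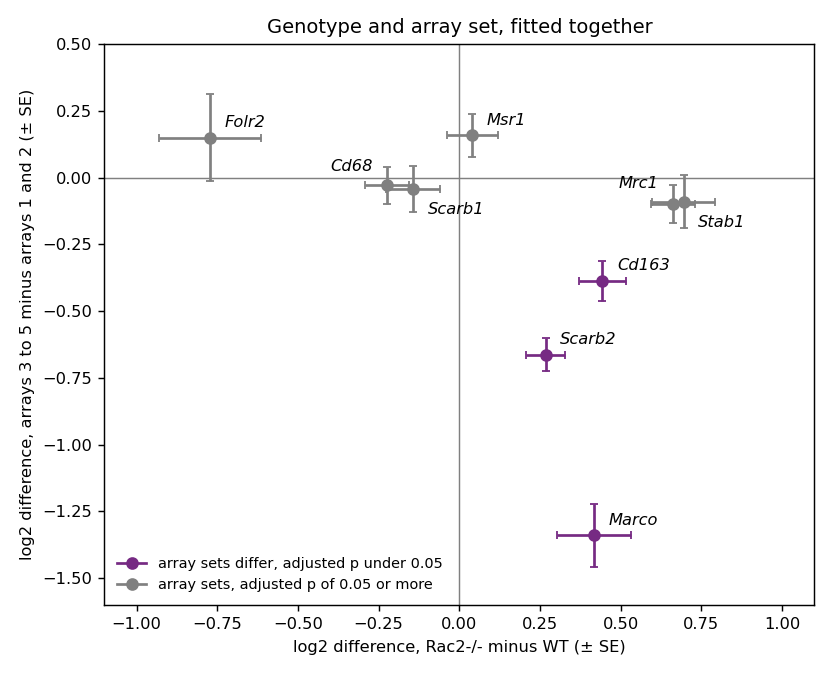
Log2 difference of each receptor between genotypes (x axis, Rac2-/- minus WT) against its difference between array sets (y axis, arrays 3 to 5 minus arrays 1 and 2), fitted together, with SE bars; purple marks receptors whose array sets differ at an adjusted p under 0.05. Marco, Scarb2 and Cd163 lie low on the y axis, and Mrc1, Stab1 and Folr2 lie far from 0 on the x axis only.

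Genes around these receptors were read from lists of known relatives. Of 18 other scavenger receptors tested, 1 rose and none fell, against 1.9% of all features called. The one that rose was Colec12, a collectin with a collagen-like stalk, at 10.21 ± 0.35 in Rac2-/- and 8.86 ± 0.21 in WT BMDMs, a difference of 1.35 (SE 0.17; adjusted p = 0.00389), or 2.54-fold higher. Cd5l, a secreted scavenger protein of macrophages, was at 9.03 ± 1.25 in Rac2-/- and 11.04 ± 0.72 in WT BMDMs (difference -2.01, SE 0.57, adjusted p = 0.145), with groups that did not overlap. The median difference of the list was 0.0050, against 0.27 for the 9 receptors. The lists lie at unlike levels: the median gene lay above 52.6% of all features in this list and above 94.0% for the 9 receptors. Much of this list was thus near the middle of the arrays, where a difference is harder to see.

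Of 8 tested relatives of Mrc1, Folr2 and Cd68, 1 fell, against 1.9% of all features called. This was Pla2r1, the phospholipase A2 receptor of the mannose receptor family, with a difference of -0.48 (SE 0.092, adjusted p = 0.0286), opposite in sign to Mrc1. It was at 5.54 in Rac2-/- and 6.02 in WT BMDMs, above only 38.7% and 47.9% of all features, far lower on the arrays than Mrc1. It passed in 3 of 10 fits without 1 array. Ly75, the family member DEC-205, differed by -0.34 (adjusted p = 0.506).

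Of 21 ligands, cargo and partners, 0 passed the test in limma and 4 had an unadjusted p under 0.05 (10.4% of all features did). With the replicate block 2 passed, against 6.35% of all features. Those 2 were Hmox1, the haem oxygenase that breaks down haem taken up through CD163, with a difference of 0.35 (adjusted p = 0.0808, and 0.0210 with the block), and Sparc, the ligand of stabilin-1, with a difference of -0.78 (adjusted p = 0.469, and 0.0228 with the block). Abcg1, which exports cholesterol, differed by -0.68 (adjusted p = 0.237). Hmox1 was chosen for mention after its values were seen.

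Of 13 genes of resident-type macrophages often found with Folr2 and Cd163, 11 had higher means in Rac2-/- BMDMs, against 49.9% of all features. Of these 13 genes, 1 passed the test, against 1.9% of all features. Pf4, a chemokine of platelets and resident macrophages, was at 10.88 ± 0.084 in Rac2-/- and 9.49 ± 0.43 in WT BMDMs, a difference of 1.39 (SE 0.18; adjusted p = 0.00463), or 2.62-fold higher. F13a1, encoding a subunit of coagulation factor XIII, was at 11.77 ± 0.41 in Rac2-/- and 9.77 ± 1.06 in WT BMDMs, with a difference of 2.00 (SE 0.46) and an adjusted p of 0.0616. The median difference of this list was 0.15, while Folr2 itself fell.

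Of 17 transcription factors tied to these receptors, 1 rose and 1 fell, against 1.9% of all features called. Cebpa, a factor of myeloid cells, rose by 0.65 (SE 0.12; adjusted p = 0.0216), and passed in 3 of 10 fits without 1 array. Nr1h3, encoding LXR alpha, the oxysterol receptor that drives cholesterol export, fell by 1.15 on the log2 scale (SE 0.13; adjusted p = 0.00226), at 8.74 ± 0.21 in Rac2-/- and 9.89 ± 0.22 in WT BMDMs. Pparg, a lipid-activated factor, differed by -1.12 (adjusted p = 0.0600), and passed with the replicate block (adjusted p = 0.0121).

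**Figure D4:**
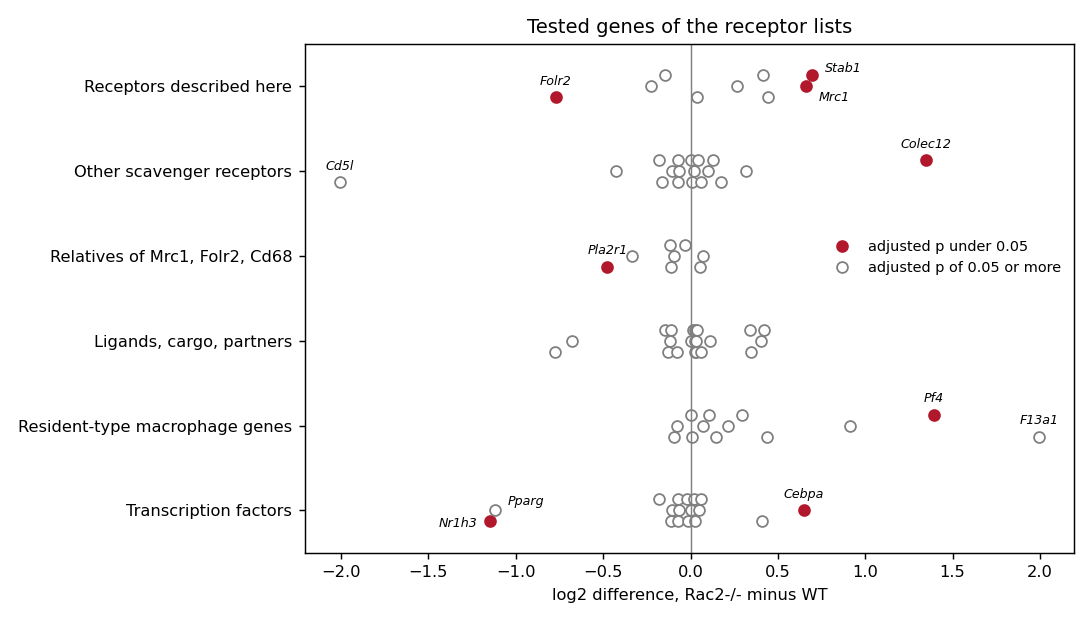
Log2 differences, Rac2-/- minus WT, of the tested genes in the receptor group and 5 lists of related genes, 1 point a gene, with red points at an adjusted p under 0.05. Mrc1, Stab1, Colec12, Pf4 and Cebpa lie to the right, and Folr2, Pla2r1 and Nr1h3 to the left; vertical offsets within a list only separate the points.

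Markers of the cells a culture of this kind can hold were read alongside, since in bulk RNA fewer cells of a type and less RNA per cell cannot be told apart. Over all features, 1.9% passed the test and 6.35% passed it with the replicate block. Of 11 macrophage markers none passed, 2 had an unadjusted p under 0.05 (10.4% of all features did), and 2 passed with the replicate block, Itgam (0.33, adjusted p = 0.0380) and Fcgr1 (-0.74, adjusted p = 0.0449), both named after their values were seen. The median difference of the macrophage list was 0.00012, and its summed log2 level ran from 131.5 to 134.5 in Rac2-/- and from 132.9 to 135.3 in WT arrays. Of 5 monocyte markers, Plac8 fell, with a difference of -2.36 (SE 0.44; adjusted p = 0.0257; 5 of 10 fits without 1 array), and the summed level ran from 41.2 to 45.5 in Rac2-/- and from 41.6 to 49.5 in WT arrays. Of 6 dendritic cell markers, Ccr7 fell (-0.91, SE 0.15, adjusted p = 0.0141), and with the block Xcr1 (0.61) and Siglech (-0.62) passed too, the last pair named after their values were seen; the list's summed level ran from 34.5 to 36.7 in Rac2-/- and from 35.6 to 37.9 in WT arrays.

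None of the 5 mast cell and basophil, 9 neutrophil, 7 endothelial, 9 fibroblast or 3 lymphocyte markers tested passed in limma, and 4, 0, 0, 4 and 0 of them had an unadjusted p under 0.05, against 10.4% of all features. All 5 mast cell and basophil markers and 8 of 9 neutrophil markers had lower means in Rac2-/- BMDMs. Of all features tested, 49.9% had higher means. Cpa3 passed the filter only through WT arrays, since its Rac2-/- values, 3.87 to 4.42, all lay below the filter's cut of 4.73. Its lower mean was thus favoured by the filter, and its part in the mast cell and basophil counts and summed level adds no support. Fcer1a and Ms4a2 of that list lay below the filter and were not tested. The summed level of the mast cell and basophil list ran from 25.7 to 27.0 in Rac2-/- and from 27.7 to 31.7 in WT arrays, with no overlap, and that of the neutrophil list from 59.4 to 75.1 in Rac2-/- and from 61.8 to 80.9 in WT arrays. With the replicate block 3 fibroblast markers passed, against 6.35% of all features. These were Dcn (-1.21), Postn (-0.69) and Pdgfrb (0.62), named after their values were seen. The fibroblast list's summed level ran from 59.4 to 64.2 in Rac2-/- and from 62.3 to 65.9 in WT arrays. Array values have no true zero, so no marker was read as absent. The part of these cells in the differences of the 9 receptors was not tested.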

How the data were processed

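Total RNA of 5 Rac2-/- and 5 WT BMDM samples was read on Affymetrix Mouse Gene 1.0 ST arrays. The authors deposited log2 values made with RMA, which corrects background, quantile-normalizes and summarises probes into 1 value a feature. Its version was not given in the sources used here. Values were deposited for 34760 features, and array medians lay between 6.07 and 6.14. Of these, 27031 features with the highest fourth-highest value (at least 4.73), the number given in the study's methods, were tested with limma 3.58.1 in R 4.3.3 (lmFit, eBayes, 2 groups of 5, no covariate) and p-values were adjusted over all of them by Benjamini-Hochberg, with a threshold of 0.05. ComBat, which the methods name, was run as an alternative from its published parametric model, written out in R, because whether the deposited values had already passed through it was not stated and the array sets still differed in them. No scanner files were used, so background and detection could not be read, and the number of arrays limits the precision.

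A symbol was used where the platform table gives a feature 1 symbol (21640 features; 1321 gave several and 11799 were unlisted), updated through RefSeq where it matched (21553). The labels name 5 mice a group but do not tie an array to a mouse, and each p-value therefore speaks for the spread among these 10 arrays, which may be technical. Both groups carry numbers 1 to 5, and the numbers were treated as pairing arrays, a pairing that is assumed and not stated in the labels. Deviations from the group means correlated between all 5 same-numbered arrays (r = 0.493 to 0.716). Same-numbered arrays always share an array set, so this correlation cannot tell a pairing by number from the array set. The same-numbered array of the other group correlated best for 5 of the 10 arrays. Each set holds only 2 or 3 arrays of the other group, so the array set alone would often make the same number best. This count does not show a pairing. The fit with the replicate block is given where it changes a call, and its calls rest on the assumed pairing. Named by rule beyond the 9 receptors were Rac2, list genes past the threshold, the 2 largest differences of each of the 5 related lists, and the 3 genes closest to each receptor called. Outside this rule were Adgre1 and Csf1r, picked from the macrophage markers, and the genes marked above as named after their values were seen. Genes of the lists with no feature of their own or below the filter were not tested. Members, lists, array sets and tests were chosen with earlier results of these data known. Promoter windows, 250 bases before to 50 bases after a gene start, were from RefSeq (GRCm38.p6) and were searched for 3 motifs on both strands. The fit without a block and those with the array set or the block were run on simulated data with known differences. Small mean errors and right signs were required of all of them. Recovery of the largest differences was required only with the array set or the block, and no limit was set on false calls. Alternatives were other filters, the block, the array set as a term, by ComBat and within sets, variance models, array weights, normalizations, the mean of a gene's features, and leaving out each array.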

Additional observations from a re-analysis of the deposited data

Results flagged for a closer look

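Among the 9 receptors in both groups (18 groups of 5 arrays), 1 array stood far from the others of its group. Msr1 was at 11.10 in Rac2-/- array 2, against 11.36 to 11.46 in the other 4 Rac2-/- arrays. Chance alone flags about 1 in 20 such groups. Without this array the Msr1 difference was 0.10, with an adjusted p of 0.870, so the receptor stayed short of the threshold.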

How the results depend on the processing

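The count of receptors called was 3, and it was 5 with a term for the array sets, 7 with ComBat (Mrc1, Stab1, Cd163, Marco, Scarb2, Folr2 and Cd68) and 0 within arrays 1 and 2, where 4 receptors and 9.16% of all features had an unadjusted p under 0.05 and 2 arrays a group remained. With the replicate block it was 4. The count of features called was 514, and it was 1716 with the replicate block, 2524 with the array-set term, 4386 with ComBat, 1811 with array weights, 1487 within arrays 3 to 5 and 2 within arrays 1 and 2. Leaving out 1 array gave 245 to 625 features and 2 to 3 receptors. The cause of these moves was not tested. Mrc1 and Stab1 passed under every alternative except within arrays 1 and 2 (adjusted p 0.345 and 0.366). Folr2 kept its direction and missed the threshold under 14 of 22 alternatives. Msr1 ran from -0.014 (without WT array 1) to 0.10 (without Rac2-/- array 2) over the fits without 1 array, and its sign is not settled. Cd163 gave no value under the filter at the median of all features, which removed it.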
